A study of Drosophila melanogaster with 7 samples.

Results

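The genes described here carry out or control DNA replication and mitosis. There were 44 of them among the 17619 entries of the deposited tables, and all 44 were found. These were 16 replication genes, 15 mitosis genes, 7 regulators of the cell cycle and 6 genes of a chromatin group. That group includes the importin Pen and is called the chromatin genes below. All 44 were measured by single-cell RNA sequencing of midgut tumors of Drosophila melanogaster in 7 droplet libraries. Tind1 to Tind6 each hold the cells of 1 tumor, and Tgrp holds those of 6 tumors together.

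The tumors shared one genotype and one treatment. Flies of the line yw,HS-flp, HS-mflp5 with esg-gal4,UAS-flybow and FRT82B,Tub-Gal80 were crossed to yw,HS-flp flies with UAS-RasV12 and the chromosome FRT82B,Apc2N175K,ApcQ8, and the young adult progeny had a heat shock of 2 h at 37°C. Recombination after the heat shock gives clones homozygous for the Apc2 and Apc mutations and without the Gal80 repressor. In these clones esg-gal4, which is active in intestinal stem cells and enteroblasts, drives oncogenic Ras and the fluorescent reporter. Tumors were taken at least 21 days after induction (dpi). No library of normal gut was analysed here, so all comparisons are between cells within these tumors or between the tumors.

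In the midgut, intestinal stem cells divide, whereas enteroblasts turn into enterocytes by replicating their DNA without dividing. Replication transcripts and mitosis transcripts can therefore mark different cells: replication genes are used in every S phase, endoreplication included, and mitosis genes where chromosomes are segregated. In a mitotic cycle replication genes rise toward S phase under E2F control, and mitosis genes rise in G2.

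Of 9914 deposited cells, 7998 had 100 to 2000 genes and at most 15% mitochondrial UMIs (unique molecular identifiers, 1 for each captured transcript). Median depths of kept cells ran from 317 UMIs (Tind3) to 2384 UMIs (Tind4). Tind3 and Tind6 were the shallowest libraries, with 180582 and 227863 kept UMIs, against 551695 to 5133789 in the others. To compare cells at equal depth, 300 UMIs were drawn from each of the 7694 kept cells that had them, and a cell with at least 1 UMI of a gene group in this draw is called positive for it. The 304 shallower cells, 181 of them in Tind3, have no class. Tind4 and Tind5 had 116 cell barcodes in common, while no other pair had more than 3, and several results are also given without the shared Tind5 cells. Progenitor markers were present in every library, at 529 to 1104 UMIs per 1000000 UMIs of the kept cells (CPM) summed over 9 genes. The 45 enterocyte markers had 176 to 749 CPM, with 25 to 41 of them at 0, the 18 enteroendocrine markers 175 to 700 CPM, the 16 visceral muscle markers 11.5 to 139 CPM and the 9 hemocyte markers 69.5 to 163 CPM.

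Replication transcripts were more abundant than mitosis transcripts in all 7 libraries. The 16 replication genes summed to 934 ± 267 CPM and the 15 mitosis genes to 301 ± 84.3 CPM (SD, n = 6 tumors). For replication, Tind1 had 875 CPM, Tind2 583, Tind3 1047, Tind4 848, Tind5 865, Tind6 1387 and Tgrp 774 CPM. For mitosis, Tind1 had 332 CPM, Tind2 224, Tind3 316, Tind4 213, Tind5 281, Tind6 443 and Tgrp 317 CPM. Tind6 was highest in both groups. The ratio of the sums was between 2.61 in Tind2 and 3.98 in Tind4. It averaged 3.12 ± 0.506 over the 6 tumors (SD) and was 2.44 for Tgrp. The library counts 1 tag at the 3′ end of each captured transcript, so CPM was not divided by gene length. In such sums, fewer cycling cells and less RNA of these genes per cell cannot be told apart.

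**Figure D1:**
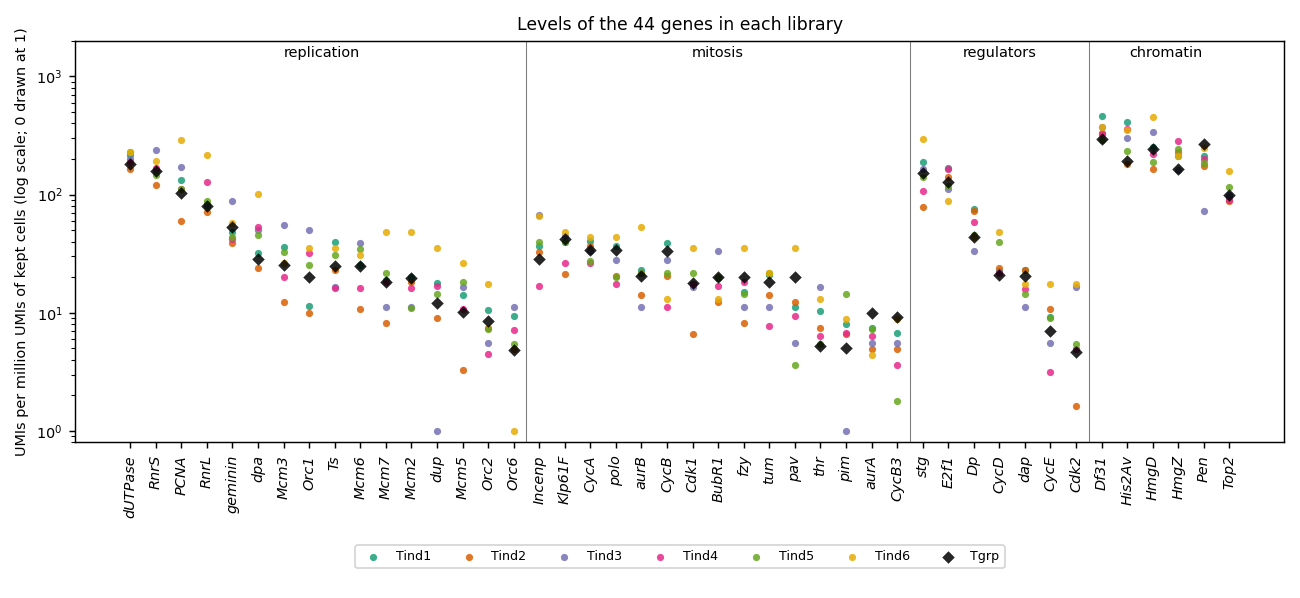
Level of each of the 44 genes in each library, in CPM over the UMIs of kept cells on a log scale, with values of 0 drawn at 1. Colored points are the 6 individual tumors and black diamonds are Tgrp, genes are ordered by mean level within each group, and dUTPase at 204 CPM, Incenp at 43.1 CPM, stg at 163 CPM and Df31 at 358 CPM lead their groups.

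Enzymes of nucleotide supply and the sliding clamp made up most of the replication signal. dUTPase, which keeps uracil out of DNA (chromosome 2L, 11011312 to 11012135 in genome release 6), had 204 ± 26.2 CPM and the smallest relative spread of the 44 genes, with a coefficient of variation of 12.8% over the 6 tumors. RnrS and RnrL, the small and large subunits of ribonucleotide reductase, had 171 ± 40.9 and 111 ± 54.5 CPM. PCNA, the clamp that holds polymerases on DNA, had 146 ± 79.3 CPM, with a lowest value of 59.2, a median of 122 and a highest value of 290 (Tind6). The mean levels of RnrS, PCNA and RnrL differed by less than the SD of PCNA. Thymidylate synthase (Ts) had 26.9 ± 9.77 CPM.

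The subunits of the Mcm2-7 helicase had lower levels, with means between 14.9 CPM for Mcm5 and 50.9 CPM for dpa (Mcm4). Mcm2, Mcm3, Mcm6 and Mcm7 had 20.8, 30.4, 26 and 21.1 CPM. Among the genes that load the helicase, Orc1 had 27.3 ± 15.2 CPM, dup (Cdt1) 15.5 ± 11.6, Orc2 8.79 ± 4.75 and Orc6 6.36 ± 3.9. geminin, which inhibits Dup outside G1, had 53 ± 18.6 CPM, more than Dup itself in each of the 7 libraries. No UMI of dup was found in Tind3, where a count of 0 allows up to 16.6 CPM, and none of Orc6 in Tind6, where it allows up to 13.2 CPM.

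The mitosis genes had low levels throughout, the highest single value being 66.5 CPM for Incenp in Tind3. Incenp, a chromosomal passenger protein, had 43.1 ± 19.6 CPM, Klp61F, the kinesin-5 motor that separates spindle poles, 36.7 ± 10.5, and polo, the Polo kinase, 27.8 ± 10.6 (SD, n = 6 tumors). Of the cyclins, CycA had 34.7 ± 6.97 CPM, CycB 22.2 ± 10.1 and CycB3 5.24 ± 2.43. Their partner Cdk1 had 19.2 ± 9.28 CPM. The kinases aurB and aurA had 24 ± 14.8 and 5.97 ± 1.23 CPM, the checkpoint kinase BubR1 19.2 ± 7.58 CPM, and the activator of the anaphase-promoting complex fzy 17 ± 9.5 CPM. The centralspindlin subunits tum and pav had 16.2 ± 6.15 and 12.9 ± 11.4 CPM. Separase (thr) and securin (pim) had 9.87 ± 4.36 and 7.44 ± 4.66 CPM, and pim had no UMI in Tind3. Most neighbors in this order differed by less than their spread between tumors.

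Among the regulators, stg, the Cdc25 phosphatase that opens the way into mitosis, led with 163 ± 75.6 CPM, with a lowest value of 78.1 (Tind2), a median of 154 and a highest value of 294 (Tind6). The transcription factor E2f1 had 132 ± 31.9 CPM and its partner Dp 54.6 ± 16.7 CPM. The G1 cyclins CycD and CycE had 29.7 ± 11.4 and 9.21 ± 4.94 CPM, Cdk2 8.53 ± 6.77 CPM, and dap, an inhibitor of CycE and Cdk2, 17.5 ± 4.74 CPM. The chromatin genes were the most abundant group, with 1446 ± 239 CPM in sum. Df31, a chromatin decondensation factor, had 358 ± 60.8 CPM, the histone variant His2Av 305 ± 84.5, the high mobility group proteins HmgD and HmgZ 270 ± 109 and 222 ± 40.7, the importin Pen 182 ± 59 and topoisomerase Top2 108 ± 26.2. The annotated spans of HmgD and HmgZ overlap on chromosome 2R, so reads of these genes may not be fully separated.

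At 300 UMIs per cell, 22.6% ± 5.63 of the cells of a tumor had a replication UMI and 6.96% ± 1.1 had a mitosis UMI (SD, n = 6 tumors). Without the shared Tind5 cells these means were 22.3% and 7.23%. For replication, Tind1 had 21.4% (95% exact interval 19.7 to 23.2), Tind2 15% (12.7 to 17.5), Tind3 24.2% (18.6 to 30.5), Tind4 21.7% (18.8 to 24.8), Tind5 20.9% (17.6 to 24.5) and Tind6 32.2% (26.7 to 38.1). Tgrp had 18.2% (16.8 to 19.6). The interval of Tind2 lay below those of the other 5 tumors, and that of Tind6 lay above those of all tumors but Tind3.

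The mitosis share varied less. Tind1 had 8.09% (95% exact interval 6.95 to 9.35), Tind2 6.41% (4.89 to 8.23), Tind3 7.58% (4.4 to 12), Tind4 5.06% (3.63 to 6.86), Tind5 6.91% (4.96 to 9.33), Tind6 7.69% (4.82 to 11.5) and Tgrp 7.22% (6.31 to 8.22). The intervals of Tind1 and Tind4 did not overlap, whereas the interval of Tind6, first in replication share, overlapped those of all other libraries here. The intervals cover counting error only. The cell filters kept 770 of 1097 deposited cells and 2215220 of 5458601 UMIs in Tind4. In Tind1 they kept 2065 of 2273 cells and 4855339 of 5793326 UMIs. The part of the filters in the difference between Tind1 and Tind4 was not tested.

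Cells with either kind of transcript, the candidates for cycling cells at this depth, made up 27.2% ± 5.52 of a tumor (SD, n = 6 tumors), between 20.4% in Tind2 and 36.6% in Tind6, and 23.2% in Tgrp. Cells with both kinds made up 2.33% ± 0.746, cells with a mitosis UMI only 4.63% ± 1.11 and cells with a replication UMI only 20.2% ± 4.97. These shares depend on the depth: at 500 UMIs per cell the share with either kind was 35.5%, and with at least 2 UMIs of a group at 300 UMIs it was 4.86%. Most positive cells therefore rest on 1 UMI.

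**Figure D2:**
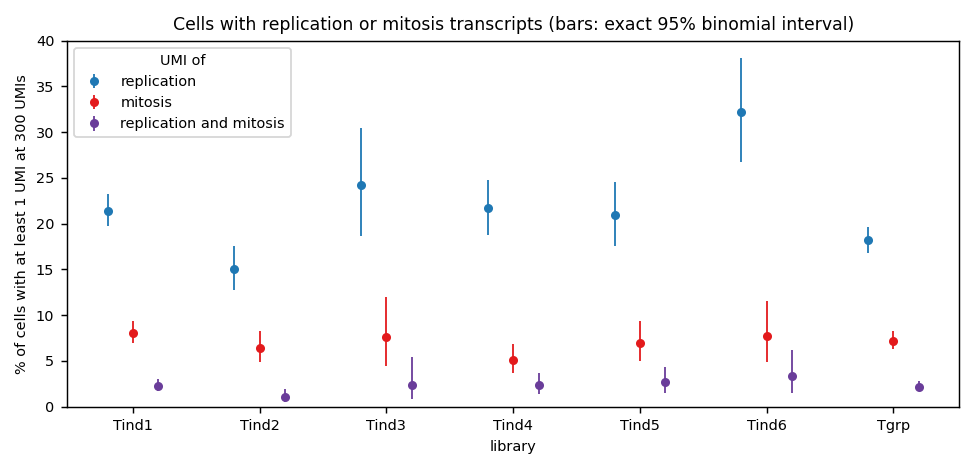
Percent of cells with at least 1 UMI of the replication genes, the mitosis genes or both, among cells thinned to 300 UMIs, in each library, with exact 95% binomial intervals as bars. Replication shares run from 15% in Tind2 to 32.2% in Tind6, mitosis shares stay between 5.06% and 8.09%, and cells with both are at most 3.3%.

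As a check of background, the shares were read in cells that should not divide. Of 137 cells with at least 2 enterocyte-marker UMIs in the draw, pooled over the 7 libraries, 2.92% had a mitosis UMI (95% exact interval 0.801 to 7.31) and 19% a replication UMI (12.8 to 26.6), with a median depth of 1001 UMIs. Among all 7694 cells the shares were 7.15% (6.58 to 7.75) and 19.9% (19 to 20.8), with a median depth of 1285 UMIs. Of 61 enteroendocrine-marker cells, 3.28% and 27.9% were positive for mitosis and replication. A replication UMI was thus about as frequent in enterocyte-marker cells as in all cells. No difference from all cells is read from these shares, and whether the replication UMIs of enterocyte-marker cells came from those cells was not tested. For mitosis, the enterocyte-marker value lay below that of all cells, with overlapping intervals. In the larger class of 522 cells with at least 1 enterocyte-marker UMI, pooled in the same way, 4.21% were mitosis-positive (2.66 to 6.31). In this class 20.1% were replication-positive (16.8 to 23.8), with a median depth of 1176 UMIs. These intervals take pooled cells as independent, and all cells include this class. It was added after the values had been seen. Within tumors its mitosis-positive share was 0.831 points higher on average than that of the other cells (exact permutation p = 0.90625). The pooled values had the opposite direction, so no lower share is read from them.

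Within tumors neither difference passed the test. In the 4 tumors with at least 5 enterocyte-marker cells, the mitosis-positive share of these cells minus that of the other cells was -4.91 ± 4.73 percentage points (sign-flip permutation test, exact and two-sided, n = 4 tumors, p = 0.25, adjusted p = 0.438, smallest possible p 0.125). The cells positive were 0 of 8 in Tind1, 0 of 12 in Tind2, 1 of 14 in Tind4 and 0 of 18 in Tind5. Left out for too few such cells were Tind3, with 2 of 3 positive, and Tind6, with 0 of 1. The replication-positive share differed by 3.25 ± 17 points (exact p = 0.875). In Tgrp, 1.23% of 81 enterocyte-marker cells and 7.39% of the other cells were mitosis-positive.

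Mitosis-positive cells had a replication UMI more often than mitosis-negative cells in each of the 6 tumors, although the difference did not pass correction. In Tind1 it was found in 28.1% of mitosis-positive and 20.8% of mitosis-negative cells. The shares in mitosis-positive and mitosis-negative cells of Tind2 were 15.8% and 14.9%, those of Tind3 31.2% and 23.6%, of Tind4 46.2% and 20.4%, of Tind5 38.5% and 19.6%, and of Tind6 42.9% and 31.3%. The mean difference was 12 ± 8.95 points (SD, n = 6 tumors, exact sign-flip permutation test, p = 0.031, the smallest that 6 tumors allow, adjusted p = 0.109 over 7 differences). Tgrp, which was not part of the test, had 30.3% and 17.2%. Without the Tind5 cells that share a barcode with Tind4 the mean difference was 9.57 points (exact p = 0.031). Mitosis-positive cells had more UMIs at full depth in 4 of the 6 tumors and in Tgrp. Their median was 1973 UMIs in Tind1, 512 in Tind3, 3447 in Tind4, 621 in Tind6 and 1689 in Tgrp, against 1721, 505, 2318, 535 and 1231 UMIs in mitosis-negative cells. It was lower in Tind2 and Tind5, at 1043 and 590 UMIs against 1081 and 709. Both classes were thinned to the same depth. Without the deepest 5% of cells of each library the difference was 12.1 points, and the part of doublets in it was not tested.

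Among the deepest cells, those rich in mitosis UMIs and the others were further apart in replication share in Tind1, Tind4 and Tgrp, but not in Tind2. No test was run on these shares. In a draw of 1500 UMIs per cell, which only 17 to 80 cells of Tind3, Tind5 and Tind6 reached, 4.16% of 1179 cells in Tind1, 1.85% of 270 cells in Tind2, 1.73% of 519 cells in Tind4 and 3.86% of 1191 cells in Tgrp had at least 3 mitosis UMIs. At least 3 replication UMIs were found in 17.3%, 8.52%, 19.5% and 15.8% of these cells. The cell richest in mitosis transcripts had 7 such UMIs, in Tgrp and in Tind6, and the cell richest in replication transcripts 14, in Tgrp. Among cells with at least 3 mitosis UMIs, 42.9% had at least 3 replication UMIs in Tind1, 66.7% in Tind4 and 60.9% in Tgrp, against 16.2%, 18.6% and 14% of the other cells. These classes held 49, 9 and 46 cells. In Tind2 none of the 5 cells with at least 3 mitosis UMIs did, against 8.68% of the others. With a count of 0 given a limit of 3 counts, the share in 5 cells could reach 60%, a rough bound and not an exact interval. The variance of mitosis UMIs per cell was 1.43 to 1.63 times the mean in these 4 libraries, and that of replication UMIs 1.75 to 2.2 times.

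**Figure D3:**
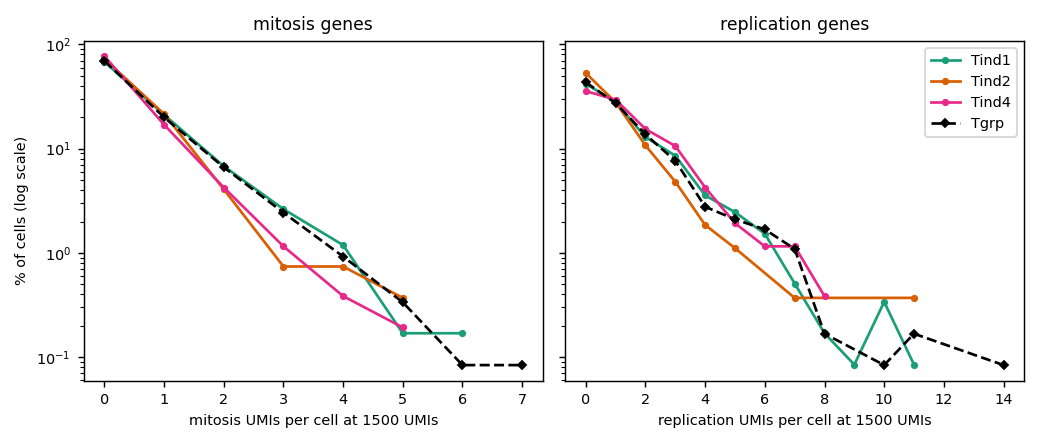
Percent of cells, on a log scale, by the number of mitosis UMIs (left) and replication UMIs (right) per cell among cells thinned to 1500 UMIs, for the 4 libraries with at least 270 such cells; numbers with no cell are not drawn. In Tgrp 69.5% of the cells had no mitosis UMI and 43.2% no replication UMI, and the tails end at 7 and 14 UMIs.

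Cells were also split by esg, which marks stem cells and enteroblasts, and by Delta, the Notch ligand of stem cells. The mitosis-positive share was higher in esg-positive than in esg-negative cells in 6 of 6 tumors. Tind1 had 10.6% in esg-positive against 7.98% in esg-negative cells, Tind2 10% against 6.11%, Tind3 16.7% against 7.04%, Tind4 19.2% against 4.57%, Tind5 11.6% against 6.53% and Tind6 9.09% against 7.63%. The mean difference of 6.23 ± 5.01 points did not pass correction (exact permutation p = 0.031, adjusted p = 0.109), and the esg-positive classes held 11 to 85 cells. Tgrp had 15.5% of 142 esg-positive cells and 6.8% of the others. The replication-positive share was 1.14 points lower in esg-positive cells on average, with 3 tumors on each side of 0 (exact p = 0.71875).

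Of Delta-positive cells, 5.13%, 20%, 0%, 14%, 16.7% and 7.69% were mitosis-positive in Tind1 to Tind6, against 8.14%, 6.18%, 7.77%, 4.54%, 6.7% and 7.69% of Delta-negative cells. The mean difference was 3.74 ± 8.54 points (exact permutation p = 0.375, adjusted p = 0.525). The classes held only 5 to 43 Delta-positive cells, and with another random draw of 300 UMIs the difference was 8.11 points with an exact p of 0.031, and without the Tind5 cells that share a barcode with Tind4 it was 8.14 points (exact p = 0.1875), so that these data do not settle it. In Tgrp, 23.9% of 109 Delta-positive cells and 6.58% of the others were mitosis-positive. The replication-positive share differed by 9.32 points between Delta-positive and Delta-negative cells (exact p = 0.09375, adjusted p = 0.219).

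**Figure D4:**
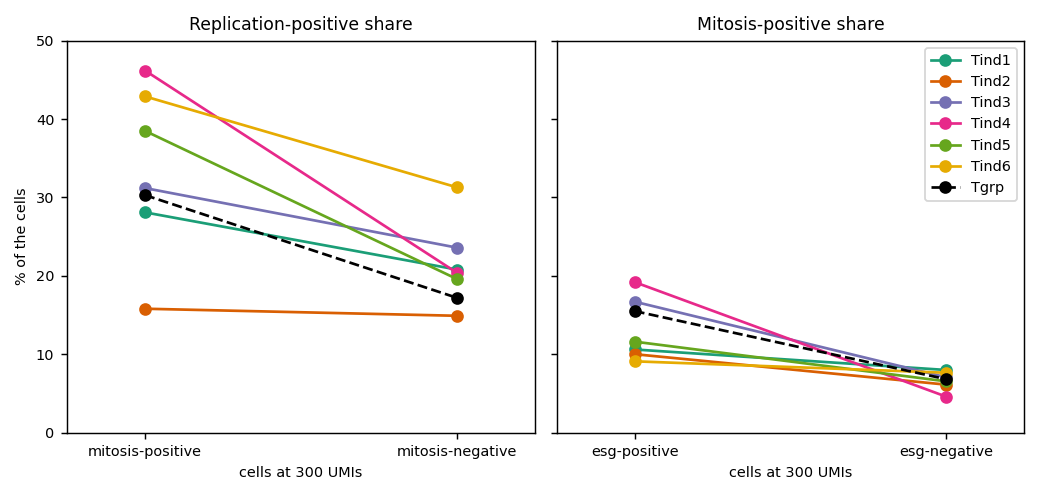
Left, percent of cells with a replication UMI among mitosis-positive and mitosis-negative cells. Right, percent of cells with a mitosis UMI among esg-positive and esg-negative cells. Cells were thinned to 300 UMIs, each line joins the classes of 1 library, and Tgrp is dashed; the left point is the higher one in every individual tumor in both panels, most so in Tind4, with 46.2% of mitosis-positive and 20.4% of mitosis-negative cells, and least so in Tind2 in the left one, with 15.8% and 14.9%.

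Next, genes other than the class-setting ones were compared between the classes. For each tumor and class the UMIs at full depth were added up, and edgeR's quasi-likelihood test was run with the tumor as a block. The count filter asked for enough counts in as many sums as a class has. A gene could therefore pass it through the class where it was high, and a low-count gene that did not rise could fail it. The counts of genes that rose are limited by this. In mitosis-positive cells, 14 of the 29 genes that did not set the class had enough counts to be tested, and 7 of them rose, none fell and 7 were not called. Over all 1794 genes tested, 4.12% were called higher and 6.97% lower (adjusted p under 0.05).

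Of the replication genes, dUTPase rose. It had 322 to 683 CPM in mitosis-positive cells (median 447) and 151 to 208 CPM in mitosis-negative cells (median 203), so the classes did not overlap over the 6 tumors. The 322 CPM is the value of Tind3, whose mitosis-positive class held 16 cells, and rests on few UMIs. The lowest values of stg and Pen in this class, given below, also come from Tind3. The log2 fold change of dUTPase was 1.13 ± 0.17 (SE, edgeR adjusted p = 2.49e-05), and in Tgrp it had 413 and 157 CPM. The other replication genes tested were not called: geminin at a log2 fold change of 0.65 ± 0.28, PCNA at 0.30 ± 0.21, RnrS at 0.14 ± 0.20 and RnrL at -0.49 ± 0.25 (edgeR adjusted p = 0.12, 0.368, 0.71 and 0.207). The median over the 5 was 0.30, against -0.03 over all genes tested.

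The regulator stg rose as well, with 107 to 1158 CPM in mitosis-positive cells (median 225) and 69.4 to 228 CPM in mitosis-negative cells (median 156). It was higher in 5 of 6 tumors, at a log2 fold change of 0.92 ± 0.21 (edgeR adjusted p = 0.00295), and had 297 and 137 CPM in Tgrp. E2f1 at -0.13 ± 0.21 and Dp at 0.30 ± 0.25 were not called. CycE, CycD, Cdk2 and dap were under the count filter, and dap had 22.4 to 137 CPM in mitosis-positive cells and 6.09 to 21.7 CPM in mitosis-negative cells, which rests on 29 UMIs in the positive class.

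Of the 6 chromatin genes 5 rose, the importin Pen among them, with a median log2 fold change of 0.81 over the group. Pen had 107 to 656 CPM in mitosis-positive cells (median 415) and 81.9 to 228 CPM in mitosis-negative cells (median 171). Its log2 fold change was 1.15 ± 0.17 (edgeR adjusted p = 2.49e-05), and it was higher in 6 of 6 tumors. The changes of Df31, HmgZ, HmgD and Top2 were 0.91 ± 0.15, 0.87 ± 0.16, 0.75 ± 0.16 and 0.65 ± 0.20 (edgeR adjusted p = 1.24e-04, 2.91e-04, 0.00216 and 0.0284). His2Av was not called, at 0.40 ± 0.16.

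In replication-positive cells, 13 of 28 genes were tested, and 8 rose, none fell and 5 were not called, against 3.21% of 2835 genes called higher and 6.35% called lower. Of the mitosis genes, Klp61F and polo rose. Klp61F had 31.6 to 87.4 CPM in replication-positive cells (median 52.1) and 17.5 to 50 CPM in replication-negative cells (median 28.6), was higher in 5 of 6 tumors and had a log2 fold change of 1.09 ± 0.21 (edgeR adjusted p = 1.39e-04). polo had 26.7 to 94.7 CPM in replication-positive cells (median 39.8) and 10.6 to 50 CPM in replication-negative cells (median 18.7), at 0.72 ± 0.24 (edgeR adjusted p = 0.0407). For both genes the classes overlapped across tumors. CycA, at 0.58 ± 0.21, and Incenp, at 0.22 ± 0.23, were not called (edgeR adjusted p = 0.0704 and 0.621), and the other mitosis genes were under the filter. Klp61F and polo could pass the filter through the class where they were high. No share of the mitosis genes that rose is therefore read from this comparison.

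stg rose in this class too, with 139 to 505 CPM in replication-positive cells (median 266) and 62.2 to 228 CPM in replication-negative cells (median 102), at a log2 fold change of 0.76 ± 0.14 (edgeR adjusted p = 5.38e-05) and higher in 6 of 6 tumors. Dp, at 0.41 ± 0.18, and E2f1, at -0.20 ± 0.15, were not called. Among the chromatin genes Pen rose by 0.87 ± 0.12, HmgD by 0.76 ± 0.12, HmgZ by 0.72 ± 0.12, Df31 by 0.70 ± 0.11 and His2Av by 0.46 ± 0.12 on the log2 scale (edgeR adjusted p = 1.21e-07, 2.09e-06, 5.79e-06, 1.93e-06 and 0.00658). Top2 was not called, at 0.30 ± 0.15.

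**Figure D5:**
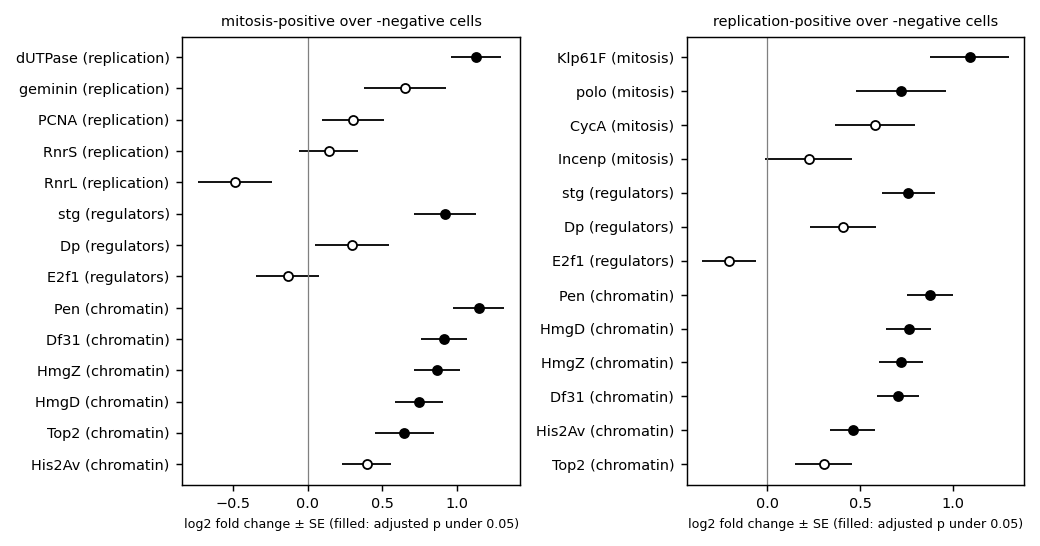
Log2 fold change ± SE of every gene of the 44 that passed the count filter, for mitosis-positive over mitosis-negative cells (left) and replication-positive over replication-negative cells (right), from edgeR over 6 tumors; filled points have an adjusted p under 0.05. The left panel holds 14 genes, 7 of them filled, and the right one 13 genes, 8 of them filled, with stg, Pen, Df31, HmgZ and HmgD filled in both.

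The number of genes called was unstable in both comparisons. Another random draw of 300 UMIs called 446 genes in place of 199 in the mitosis comparison and 210 in place of 271 in the replication comparison, and without the tumor block neither comparison called any gene (212 and 96 genes at an unadjusted p under 0.05). Without the Tind5 cells that share a barcode with Tind4, 270 and 224 genes were called. Without Tind4 the mitosis comparison called 110 genes, and the replication comparison called 78 genes without Tind1 and 86 without the deepest 5% of cells. dUTPase lost its call with at least 2 UMIs and without the block alone. Top2 in the mitosis comparison lost it under 10 of 17 alternatives. polo in the replication comparison lost it under 5 of the 10 that gave it an adjusted p.

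The classes of the 1500-UMI draw, with 3 UMIs as the limit and Tgrp included, held fewer cells. Depth, UMI limit and libraries all changed from the comparisons at 300 UMIs, and the part of each in the results was not tested. Of 21 genes tested in cells with at least 3 mitosis UMIs, 17 rose, none fell and 4 were not called, against 6.65% of 3506 genes called higher. dup, Mcm5, Mcm3, Ts, Mcm6, PCNA, dUTPase, dpa and geminin rose by 2.36, 2.04, 1.73, 1.60, 1.59, 1.51, 1.42, 1.30 and 0.99 on the log2 scale (SE 0.23 to 0.40, edgeR adjusted p at most 0.0135), as did Dp by 1.03 ± 0.29. RnrL at 0.36 ± 0.29 and RnrS at 0.43 ± 0.25 were again not called. Of 20 genes tested in cells with at least 3 replication UMIs, 15 rose and none fell, against 6.24% of 3780 genes called higher. They include pav at 1.53 ± 0.30, aurB at 1.41 ± 0.25, tum at 1.40 ± 0.29, polo at 1.31 ± 0.22, Klp61F at 1.26 ± 0.21, CycB at 0.94 ± 0.25 and CycA at 0.74 ± 0.21, and dap at 1.10 ± 0.26. This comparison was added after the values at 300 UMIs had been seen. It rests on 4 libraries for mitosis and on 6 for replication. dup, Mcm5, Mcm3, Ts, Mcm6 and dpa had been under the count filter in the mitosis comparison at 300 UMIs. Of the genes that did not set the class, 8 stayed under the filter in each comparison. Since a gene could pass through the class where it was high, the filter limits what the counts of genes that rose show.

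Of the other genes of both processes, few passed the count filter. Only 5 of 62 other mitosis genes were tested in the mitosis comparison, where scra (Anillin, which organizes the contractile ring) rose by 0.93 ± 0.23 (edgeR adjusted p = 0.00699), and endos, cnn and feo were not called at 0.50, -0.49 and 0.48. In the replication comparison 14 were tested. The checkpoint protein Bub3 rose by 0.89 ± 0.22 and the passenger protein borr by 0.76 ± 0.25 (edgeR adjusted p = 0.00343 and 0.0383), and scra and san were not called at 0.51 and 0.46. Of 35 other replication genes, 3 were tested in either comparison and none was called (RPA1, RfC4 and asf1, at -0.49, -0.26 and 0.13 in mitosis-positive and at 0.10, 0.29 and 0.51 in replication-positive cells). In the 1500-UMI draw, 15 of 30 other mitosis genes tested rose in the mitosis comparison and 14 of 30 in the replication comparison. For other replication genes these were 3 of 6 and 4 of 7, and no gene of either list fell. Over all genes tested there, 6.65% and 6.24% were called higher. The count filter limits these counts too.

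Of the progenitor markers, 1 of the 4 tested was called in the mitosis comparison and 1 of the 7 tested in the replication comparison, Delta in both. Delta had 0 to 914 CPM in mitosis-positive cells (median 196) and 58 to 412 CPM in mitosis-negative cells (median 90.7), at a log2 fold change of 1.10 ± 0.20 (edgeR adjusted p = 2.91e-04), and rose by 0.46 ± 0.14 in replication-positive cells (edgeR adjusted p = 0.0197). The call in mitosis-positive cells was lost under 2 of 17 alternatives and that in replication-positive cells under 6 of 17. The latter include leaving out the shared Tind5 cells, at 0.37 (edgeR adjusted p = 0.0988). esg was not called in either comparison, at 0.38 ± 0.18 and -0.02 ± 0.13, nor were Sox21a, at 0.26 ± 0.22 and 0.13 ± 0.17, and E(spl)mbeta-HLH, at -0.55 ± 0.23 and -0.03 ± 0.14. The median log2 fold change of the progenitor markers tested was 0.32 in the mitosis and -0.03 in the replication comparison, against -0.03 and -0.01 over all genes tested. The 9 progenitor markers summed to 803 to 1504 CPM in mitosis-positive cells and 500 to 1115 CPM in mitosis-negative cells. The 45 enterocyte markers summed to 82 to 1074 CPM in mitosis-positive cells, with 37 of them at 0 in this smaller class. In mitosis-negative cells they summed to 184 to 805 CPM. The medians were 160 and 237 CPM, and the sum was lower in mitosis-positive cells in 5 tumors and higher in 1. The 18 enteroendocrine markers summed to 122 to 328 and 173 to 738 CPM in these classes, the 16 visceral muscle markers to 0 to 107 and 8.79 to 143 CPM, and the 9 hemocyte markers to 0 to 215 and 67 to 163 CPM. Their part in the changes was not tested.

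Finally, mitosis-only cells were compared with replication-only cells. None of the 8 regulators and chromatin genes tested was called, with log2 fold changes between -0.18 for His2Av and 0.29 for Pen (SE 0.18 to 0.26), while 1.14% of 875 genes were called in either direction. Of these 10 genes, Hsp68, alphaTub84B and Ras85D were higher in mitosis-only cells, at 1.10 ± 0.25, 0.44 ± 0.11 and 0.47 ± 0.12. LysX, Ssk, Decay, CG5399, Gadd45, Arc1 and CG15784 were lower, between -1.52 and -0.62. The number of calls was 0 without Tind3 and 0 without Tind4, 7 without the shared Tind5 cells and 17 with another random draw.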

How the data were processed

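Libraries were made with the Chromium 3′ kit (chemistry 3.1). Per the submitters' processing notes, Cell Ranger 6.0.1 was used with release 6.42 of the Drosophila genome. What the authors deposited are raw UMI counts of 17619 entries in each called cell, not normalized. Symbols were taken from gene names by FlyBase identifier, and positions from Ensembl annotation 115 of the same genome release. Kept UMIs per library ran from 180582 to 5133789. Doublets were not removed.

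Cells with 100 to 2000 genes and at most 15% mitochondrial UMIs were kept and thinned to 300 UMIs (random seed 1). Shares have exact 95% binomial intervals, and a count of 0 was given a limit of 3 counts. Full-depth counts were summed per tumor and class, for classes of at least 5 cells. They were tested with edgeR 4.0.16 in R 4.3.3 (TMM, filterByExpr, quasi-likelihood test, tumor as block), with Benjamini-Hochberg adjustment over all genes tested, and checked on simulated data. Sums of a pair come from the same tumor, which is the source of the pairing. Class-setting genes got no test and were left out of the adjustment, a change made after a first run. Shares were compared by exact two-sided sign-flip permutation tests with adjustment over 7 differences. Tgrp was reported beside the tests, since its cells cannot be assigned to a tumor. DESeq2 1.42.0 was an alternative. Python 3.11.15, numpy 2.4.6, scipy 1.17.1, pandas 2.3.3 and matplotlib 3.10.9 were used.

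The genes and lists were chosen with earlier results of these data known. The draw of 1500 UMIs, the class with 1 enterocyte-marker UMI, the differences by esg and the replication difference by Delta were added after the data had been seen. Genes named are those among the 44 with an adjusted p under 0.05, some of the others in each group, the 4 other replication and other mitosis genes with the smallest adjusted p, Delta and esg. Those called between mitosis-only and replication-only cells were named after their values were seen, as were the genes followed through the alternatives.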

Additional observations from a re-analysis of the deposited data

Results flagged for a closer look

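Of 62 values with 4 to 10 tumors, 8 had a highest or lowest tumor beyond Dixon's 95% limit, where chance gives about 1 in 20. Tind6 was far above the other tumors for Mcm2 (48.3 CPM, others 10.9 to 20.2), Mcm7 (48.3 CPM, others 8.22 to 21.8), aurB (52.7 CPM, others 11.1 to 22.9), fzy (35.1 CPM, others 8.22 to 18.1) and pav (35.1 CPM, others 3.63 to 12.3). These levels rest on 11, 11, 12, 8 and 8 UMIs in Tind6. Tind3 was far above the others for geminin (88.6 CPM, others 38.6 to 57.1) and BubR1 (33.2 CPM, others 12.3 to 19.9), on 16 and 6 UMIs. Tind3 and Tind6 are the libraries with the fewest UMIs, and the paper lists Tind3 as the oldest of the tumors. The part of depth and of age in these values was not tested. The difference in mitosis-positive share between enterocyte-marker cells and other cells was 2.12 points in Tind4, with 1 positive cell of 14, and -8.12 to -6.5 points in the other 3 tumors with enough such cells.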

How the results depend on the processing

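Genes called in mitosis-positive cells numbered 199. They were 446 with another seed, 644 with 3 UMIs at 1500 UMIs, 591 with Tgrp as a 7th pair, 363 without a count filter, 316 without cell filters, 112 with DESeq2, 60 with thinned sums, 0 with at least 2 UMIs (2 tumors, 57 genes at an unadjusted p under 0.05), and 110 to 225 leaving out a tumor, lowest without Tind4. Those in replication-positive cells numbered 271. They were 609 with 3 UMIs at 1500, 491 with Tgrp, 150 with DESeq2 (1429 adjusted p not given), 86 without the deepest 5% of cells, 81 with at least 2 UMIs, 33 with thinned sums, and 78 to 297 leaving out a tumor, lowest without Tind1 and 154 without Tind4. Between mitosis-only and replication-only cells 10 were called, and 2 with 3 UMIs at 1500, 3 at 500 UMIs, 4 with DESeq2, 17 with another seed, 0 with at least 2 UMIs or without cell filters (24 and 51 genes at an unadjusted p under 0.05), 20 without a count filter, 5 with thinned sums, 16 without the deepest 5% of cells, and 0 to 17 leaving out a tumor. Without the tumor block, that is without the pairing, all 3 comparisons called 0 genes with edgeR (212, 96 and 27 genes at an unadjusted p under 0.05).

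The share of cells with either transcript was 35.5% at 500 UMIs and 4.86% with at least 2 UMIs. The replication-positive difference by mitosis class was 9.05 points with at least 2 UMIs (p = 0.5 by exact permutation) and 9.25 to 14.2 points leaving out a tumor, where 0.0625 is the smallest exact p. The mitosis difference by Delta was 8.11 points with another seed and 10 points without cell filters (exact p = 0.031 for both), and -0.372 points with at least 2 UMIs. The replication difference of enterocyte-marker cells changed sign with another seed (-3.51 points), without cell filters (-1.87) and without Tind2, and ran from -4.69 to 7.71 leaving out a tumor. Their mitosis difference did with 1 enterocyte-marker UMI (0.831).

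Log2 fold changes in mitosis-positive cells changed sign for RnrS (-0.08 at 500 UMIs, -0.00 with at least 2 UMIs, -0.15 without a count filter, -0.06 to 0.19 leaving out a tumor, lowest without Tind1), RnrL (0.36 with 3 UMIs at 1500, 0.08 at 500 UMIs, 0.22 without cell filters), E2f1 (0.04 at 500 UMIs, 0.05 without cell filters) and stg (-0.24 with at least 2 UMIs). PCNA was called with 3 UMIs at 1500 (1.51), at 500 UMIs (0.61) and with Tgrp (0.58). Top2 lost its call under 10 of 17 alternatives and polo, in replication-positive cells, under 5 of 10. The cause was not tested for any of these. Levels under about 10 CPM rest on few UMIs in Tind3 and Tind6.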

Other observations

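Genes outside the lists used for both processes also differed between the classes, and the ones given here were chosen after their values were seen. The metallothionein MtnE was lower in mitosis-positive cells, at a log2 fold change of -2.41 ± 0.35, and in replication-positive cells, at -2.29 ± 0.19 (SE, n = 6 tumors, edgeR adjusted p = 1.77e-05 and 7.41e-18). The glutathione S-transferase GstD2 was lower in both as well, at -1.33 ± 0.17 and -0.99 ± 0.12 (edgeR adjusted p = 3.21e-06 and 2e-10). The heat shock genes Hsp26, Hsp68 and Hsp27 were lower in replication-positive cells, at -1.03 ± 0.09, -0.95 ± 0.14 and -0.86 ± 0.11 (edgeR adjusted p = 1.35e-17, 2.05e-07 and 1.86e-09). In mitosis-positive cells Gadd45, a stress-induced gene, was lower at -1.49 ± 0.21, and aos, an inhibitor of EGF receptor signaling, was higher at 1.08 ± 0.27 (edgeR adjusted p = 7.63e-06 and 0.0078). The histone chaperone subunit Caf1-55 was higher in replication-positive cells, at 0.80 ± 0.18 (edgeR adjusted p = 0.00108). It was not on the list of other replication genes, although Caf1-180 and Caf1-105 were.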
